A study of Mus musculus with 17 samples.

Results

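The circadian clock of the liver was read from 10 genes, Arntl, Clock, Per1, Per2, Per3, Cry1, Cry2, Nr1d1, Nr1d2 and Dbp. They were picked by gene symbol, and each of the 10 was listed in both deposited tables, which hold 19151 genes for the high-fat diet (HFD) and 24233 genes for the Western diet (WD). RNA-seq was performed on bulk mouse tissue. Under HFD, liver was taken from 4 wild-type (WT) mice and from 4 mice with a liver-specific knockout of NgBR (N-LKO). Under WD, liver was taken from 3 WT and 3 N-LKO mice, and tumors came from N-LKO mice (3 libraries). Each diet was given for 16 weeks. NgBR, encoded by Nus1, is a subunit of the enzyme that makes dolichol. According to the study's methods, the mice were males of the C57BL6 background kept in a light and dark cycle with free access to food, they ate chow before the diets, and the knockout joined an albumin-Cre transgene to loxP sites in Nus1. Albumin-Cre acts in cells that express albumin, so other liver cell types are expected to keep an intact Nus1. The alleles carried by the WT mice and the age of each animal are not given in the labels. Labels call the samples biological replicates and do not tie a tumor to the liver of the same animal. The clock hour at which tissue was taken, and whether animals had been fasted, are not given for these samples in the sources used here. A difference in clock gene level between 2 groups and a difference in the hour of collection can therefore not be told apart.

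In the mammalian clock, the proteins of Arntl (also called Bmal1) and Clock form an activator that binds E-box sequences and switches on the Per, Cry, Nr1d and Dbp genes. PER and CRY proteins then block that activator, and the NR1D1 and NR1D2 receptors repress Arntl through a second kind of element, the RORE. In mouse liver kept in a light and dark cycle, Arntl transcripts peak around the end of the night, Nr1d1 transcripts follow in the day, Dbp and Per transcripts peak in the later day and around dusk, and Cry1 transcripts peak later still, in the night. Livers sampled at different hours, or livers with a shifted clock, differ in Arntl on the one side and in Dbp and the Per genes on the other.

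In the GRCm38 annotation (GENCODE M21), Arntl lies at chr7:113207465-113314126, Clock at chr5:76209868-76304792, Per1 at chr11:69095217-69109960, Per2 at chr1:91415982-91459324 and Per3 at chr4:151003652-151044665. Cry1 lies at chr10:85131700-85185064, Cry2 at chr2:92403646-92434043, Nr1d1 at chr11:98767932-98775333, Nr1d2 at chr14:18204054-18239127 and Dbp at chr7:45705088-45710203. Of these genes, 4 share exonic bases with a gene of the opposite strand, Arntl with Gm45355, Cry2 with D930015M05Rik, Nr1d1 with Thra and Dbp with Sphk2. Strand use in the counting was not stated, so reads of such partners cannot be told apart. Nr1d2 overlaps no annotated gene, yet its estimated counts were not whole in 9 of 9 WD libraries and in 0 of 8 HFD libraries. The counting divides reads between features they could come from, and the share of Nr1d2 reads so divided was not measured. Neither Thra (log2 fold change of -0.20 ± 0.17, approximate SE, in tumor against WT liver under WD) nor Sphk2 (-0.08 ± 0.23) passed the test in any comparison below, Gm45355 was not listed in either table, and D930015M05Rik was listed under WD only and was too low to be tested.

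Promoter windows from RefSeq (GRCm38.p6) were found for 9 of the 10 genes, all but Per2. The 250 bases before the start were searched on both strands for the E-box CACGTG, which occurred in 6.02% of 32851 windows of all genes, for the D-box as TTATGTAA, TTACGTAA or TTATATAA, bound by DBP and its relatives and found in 1.43% of windows, and for the RORE as TAGGTCA or TGGGTCA, found in 5.38%. The E-box was found before Per1, at -166 from the start, and before Cry1, at -60. A D-box was found in 2 copies before Per3, at -205 and -158, and no RORE was found before any of the 9 genes in these windows. Bases past the start and other spellings of the RORE were not searched. The lack of a match, for Arntl too, therefore does not show that a gene has no RORE. The windows with a match, and that of Arntl, whose level set the WD groups apart most clearly below, are printed from 250 to 11 bases before the RefSeq start, 5′ to 3′ along the gene, with matches in capitals. They hold no annotated exon base, and that of Per1 lies inside the gene's GENCODE span. A match is a description of letters and not a shown binding site, and the printed window is the first of 2 RefSeq windows for Per1 and for Arntl.
Per1, chr11:69098699-69098938, plus strand: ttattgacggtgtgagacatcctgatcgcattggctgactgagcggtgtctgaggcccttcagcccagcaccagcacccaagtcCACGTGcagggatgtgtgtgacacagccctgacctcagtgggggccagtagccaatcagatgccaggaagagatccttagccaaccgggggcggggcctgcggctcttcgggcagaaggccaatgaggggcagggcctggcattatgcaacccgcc
Cry1, chr10:85185065-85185304, minus strand: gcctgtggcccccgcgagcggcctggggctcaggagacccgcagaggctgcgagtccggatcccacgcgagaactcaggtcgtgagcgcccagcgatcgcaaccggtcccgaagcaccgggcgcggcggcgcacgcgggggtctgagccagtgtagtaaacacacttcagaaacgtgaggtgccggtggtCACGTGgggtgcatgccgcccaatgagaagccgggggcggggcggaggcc
Per3, chr4:151044676-151044915, minus strand: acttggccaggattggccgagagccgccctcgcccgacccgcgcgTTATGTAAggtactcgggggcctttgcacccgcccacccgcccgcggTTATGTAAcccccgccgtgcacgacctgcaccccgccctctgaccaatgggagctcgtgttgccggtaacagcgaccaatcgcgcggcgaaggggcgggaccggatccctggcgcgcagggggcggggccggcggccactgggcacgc
Arntl, chr7:113207215-113207454, plus strand: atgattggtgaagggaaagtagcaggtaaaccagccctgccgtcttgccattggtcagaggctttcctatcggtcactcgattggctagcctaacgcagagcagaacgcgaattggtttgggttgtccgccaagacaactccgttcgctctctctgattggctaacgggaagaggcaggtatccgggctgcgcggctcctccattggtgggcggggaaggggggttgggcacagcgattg

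Total counts were 9096110 to 12215784 per library under HFD and 15494731 to 20200618 under WD, and levels are given as CPM, counts scaled to a common library total, with the TMM factor that corrects for unequal composition of libraries. Values of the HFD table are compared only within that table and values of the WD table only within that one. The targeted gene Nus1 stood at 29.4 to 38 CPM in N-LKO against 82.5 to 96.2 CPM in WT liver under HFD, and at 41.7 to 51.1 CPM in N-LKO liver and 29 to 44 CPM in tumors against 88.2 to 98.9 CPM in WT liver under WD, so that no library went against its label. Markers of hepatocytes (Alb, Apoa1, Ttr, Serpina1c, Fgb and Cps1) summed to 32977 CPM or more in every library. There were 2 libraries that stood apart from their groups in clock genes, WT liver replicate 3 under HFD and tumor replicate 2 under WD. The main comparisons, spreads and relations are given with and without them below. In bulk tissue, fewer cells of a type and less RNA per cell cannot be told apart.

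Per kilobase of the longest annotated transcript, Dbp was the most abundant of the 10 genes in HFD livers (mean of 36.9 CPM per kb in WT and 44.1 in N-LKO) and Arntl the least (0.616 and 0.372). Nr1d2 and Nr1d1 came next after Dbp, at 24.9 and 23.5 CPM per kb in WT liver under HFD, followed by Cry2 (6.61) and Clock (6.04). Per2 (3.81), Per3 (3.72) and Per1 (3.37) lay close together, and Cry1 (1.17) was above Arntl only. The neighbours Nr1d2 and Nr1d1, Cry2 and Clock, and the 3 Per genes differed by less than the SD over the 4 livers. In WT liver under WD, Dbp stood at 43.2, Nr1d2 at 34.7 and Nr1d1 at 27.3 CPM per kb, and Arntl was again the lowest (0.811).

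**Figure D1:**
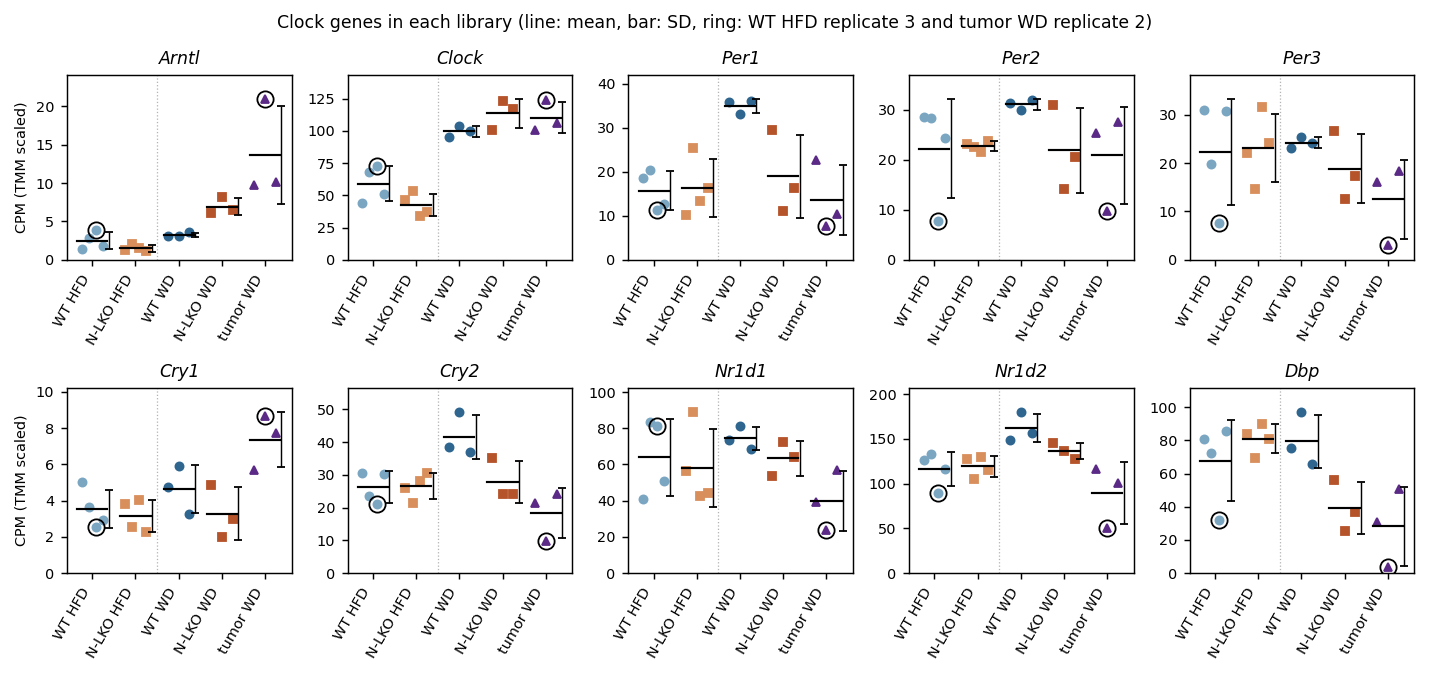
Level of each of the 10 clock genes in every library, in CPM on a linear axis that starts at 0, by group (circles WT, squares N-LKO, triangles tumor), with the mean as a line and the SD as a bar. Rings mark WT HFD replicate 3 and tumor WD replicate 2, which hold the lowest Per2, Per3 and Dbp values of their tables and the highest Arntl value.

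The first question was whether loss of NgBR moved the clock genes under HFD. The activator gene Arntl was measured at 1.35, 2.77, 3.89 and 1.83 CPM in WT replicates 1 to 4 and at 1.24, 2.06, 1.52 and 1.1 CPM in the N-LKO replicates, which rests on 13 to 35 counts per library. The 2 groups overlapped, and the highest value was that of WT replicate 3. Its log2 fold change was -0.72 ± 0.35 (approximate SE, edgeR quasi-likelihood test, adjusted p = 0.245, n = 4 and 4). Clock, the partner of Arntl, had 44.1, 68.1, 72.5 and 50.9 CPM in WT and 46.0, 53.2, 34.2 and 37.2 CPM in N-LKO liver, with a log2 fold change of -0.46 ± 0.17 (adjusted p = 0.136).

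The output gene Dbp, a transcription factor of the D-box, was measured at 81.1, 72.1, 32.1 and 85.8 CPM in WT and at 83.8, 69.1, 90.1 and 81.0 CPM in N-LKO liver. WT replicate 3 held less than the other 7 livers, and these overlapped between genotypes. The log2 fold change of Dbp was 0.26 ± 0.23 (adjusted p = 0.547), with a 95% interval from -0.25 to 0.76. The repressor genes Per1, Per2, Per3, Cry1 and Cry2 had fitted differences between -0.18 (Cry1) and 0.05 (Per1), and Nr1d1 and Nr1d2 of -0.14 and 0.04. The narrowest intervals were those of Nr1d2 (-0.22 to 0.31) and Cry2 (-0.30 to 0.33), and the widest was that of Arntl (-1.49 to 0.04). None of the 10 genes passed an adjusted p of 0.05 in edgeR, in DESeq2 or in limma-voom, while 4.84% of the 13460 genes tested did in edgeR (2.56% higher and 2.29% lower). Clock alone had an unadjusted p under 0.05 in edgeR, 1 of 10 against 22.7% of all genes. For 0 of the 10 did the values of the genotypes fail to overlap, against 14.8% of all genes (7.39% higher and 7.40% lower).

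WT replicate 3 under HFD differed from the 3 other WT livers in one pattern. Its Per2 and Per3 levels were both 7.67 CPM, against 24.4 to 28.5 CPM and 19.8 to 30.9 CPM in the other WT livers. Dbp was 2.48-fold lower than their mean, Per2 3.53-fold and Per3 3.54-fold lower, and Arntl was 1.96-fold higher. It held the lowest WT value of 7 of the 10 genes (Per1, Per2, Per3, Cry1, Cry2, Nr1d2 and Dbp) and the highest of Arntl and Clock, whereas it was the lowest WT library for 25.1% and the highest for 27.0% of all genes tested. Nr1d1 stood at 81.1 CPM there, within the WT range of 40.9 to 83.2 CPM. The marker sums of this liver were 68396 CPM for hepatocytes and 30 CPM for recruited macrophages, against 66202 to 77858 and 21 to 51.1 CPM in the other WT livers. Its Kupffer cell markers had the highest sum of the 4 WT livers (117 CPM, with the lowest at 78.6 CPM). The part of these cells in the pattern was not tested. Without this library, the number of genes called stayed at 0, the fitted difference of Arntl became -0.42 and that of Dbp 0.03, and 5 genes changed sign, Per1 (-0.07), Per2 (-0.25), Per3 (-0.24), Cry2 (-0.08) and Nr1d2 (-0.06).

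N-LKO replicate 2 under HFD held the highest Arntl (2.06 CPM), Clock (53.2), Per1 (25.5) and Nr1d1 (89) and the lowest Per3 (14.7), Cry2 (21.5), Nr1d2 (105) and Dbp (69.1) of the 4 N-LKO livers. For Arntl, Clock, Per3, Cry2, Nr1d2 and Dbp these are the ends of the range that WT replicate 3 took among WT livers, and for Per1 the opposite end. Over all genes tested, this N-LKO liver was the lowest of its group for 30.2% and the highest for 32.2%.

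Markers of other cell types differed between the genotypes under HFD. Kupffer cell markers summed to 78.6 to 117 CPM in WT and 40.4 to 76.9 CPM in N-LKO liver, and 4 of 6 fell. Spp1, which stands on both the recruited macrophage and the cholangiocyte list, made up much of both sums, with a mean of 21.3 CPM in the WT group and 62.4 CPM among the N-LKO livers. Recruited macrophage markers summed to 21 to 51.1 and 55.5 to 107 CPM, and 1 of 5 tested rose, and cholangiocyte markers to 20.5 to 38.4 and 54.5 to 99.6 CPM, with 1 of 2 tested rising, and the gene that rose was Spp1 in both. Of 6 sinusoidal endothelium markers 1 fell, and the 6 hepatocyte markers, at 66202 to 77858 and 59733 to 77733 CPM in sum, gave 0 calls in edgeR, with 1 at an unadjusted p under 0.05. Of all genes tested, 2.56% rose and 2.29% fell in edgeR. The part of these cells in the clock gene levels was not tested.

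The same question was put under WD. Arntl was measured at 3.09, 3.05 and 3.58 CPM in WT liver and at 6.12, 8.16 and 6.49 CPM in N-LKO liver. Every N-LKO liver was above every WT liver, and the means of 3.24 ± 0.294 and 6.92 ± 1.09 CPM (SD, n = 3 each) gave a 2.14-fold difference. Its log2 fold change of 1.09 ± 0.31 had an unadjusted p of 0.00503 in edgeR and an adjusted p of 0.353, so that it did not pass. Dbp was measured at 75.4, 97.1 and 65.7 CPM in WT and at 56.0, 25.1 and 36.9 CPM in N-LKO liver, and the groups did not overlap. The log2 fold change of Dbp was -1.01 ± 0.67 (adjusted p = 0.527).

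Of the Per genes, which encode the feedback repressors, Per1 had 35.8, 33.2 and 36.1 CPM in WT and 29.4, 11 and 16.4 CPM in N-LKO liver under WD. Per2 had 31.4, 29.9 and 32 CPM in WT and 31, 14.1 and 20.5 CPM in N-LKO liver, and Per3 had 23.2, 25.4 and 24.2 against 26.6, 12.5 and 17.4 CPM. The WT livers lay close together for each Per gene, with an SD of 1.08 to 1.58 CPM, whereas the N-LKO livers spread with an SD of 7.13 to 9.45 CPM. N-LKO replicate 1 was near or within the WT values for Per2 and Per3, and replicate 2 was the lowest for all 3. The log2 fold changes were -0.89 ± 0.41 for Per1, -0.51 ± 0.36 for Per2 and -0.36 ± 0.49 for Per3 (adjusted p of 0.410, 0.557 and 0.770 in edgeR).

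The other repressors differed by -0.58 ± 0.30 (Cry2), -0.50 ± 0.34 (Cry1), -0.25 ± 0.26 (Nr1d2) and -0.23 ± 0.26 (Nr1d1) on the log2 scale between N-LKO and WT liver under WD, and Clock by 0.19 ± 0.13. None of the 10 genes passed the test in edgeR, DESeq2 or limma-voom, and 1 (Arntl) had an unadjusted p under 0.05 in edgeR, against 12.4% of all genes. The background was 0% as well, since 0 of 17829 genes, Nus1 included, passed in edgeR for this comparison. The genotypes did not overlap for 5 of the 10 genes, Arntl upward and Per1, Cry2, Nr1d2 and Dbp downward, against 27.9% of all genes tested (14.3% upward and 13.6% downward).

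Tumors were then compared with liver of WT mice under WD. Arntl was the gene that set them apart most, at 9.80, 21 and 10.1 CPM in tumors 1 to 3, all above the 3.05 to 3.58 CPM of WT liver, a 4.21-fold difference of the means. Its log2 fold change was 2.07 ± 0.31 (adjusted p = 0.00782 in edgeR). Cry2, a repressor of the CLOCK and ARNTL pair, had 21.4, 9.65 and 24.0 CPM in tumors against 38.4, 49.2 and 37.0 CPM in WT liver, and fell by 1.18 ± 0.30 on the log2 scale (adjusted p = 0.0306). The tumors were all below the WT livers, and tumor replicate 2 was the lowest.

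The 2 receptor genes that repress Arntl were lower as well. Nr1d1 had 39.0, 24.0 and 57.1 CPM in tumors against 73.4, 81.3 and 68.5 CPM in WT liver, a log2 fold change of -0.89 ± 0.26 (adjusted p = 0.0470). Nr1d2 had 116.4, 50 and 100.9 CPM in tumors against 148.6, 180.0 and 157.2 CPM in WT liver, a log2 fold change of -0.86 ± 0.26 (adjusted p = 0.04999), which is at the edge of the threshold. Neither gene overlapped between the groups.

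The Per genes and Dbp had lower values in tumors without passing the test. Per1 had 22.6, 7.61 and 10.5 CPM in tumors, and its log2 fold change was -1.37 ± 0.41 (adjusted p = 0.0511). Dbp had 30.6, 3.34 and 50.4 CPM, below the 65.7 to 97.1 CPM of WT liver in each tumor, and its log2 fold change was -1.50 ± 0.68 (adjusted p = 0.155, 95% interval from -3.01 to 0.00). Per2 had 25.4, 9.79 and 27.5 CPM and Per3 16.0, 3.11 and 18.4 CPM, with log2 fold changes of -0.58 ± 0.36 and -0.96 ± 0.50. Cry1, the repressor whose transcript peaks latest in the cycle, had 5.68, 8.67 and 7.72 CPM in tumors against 4.74, 5.90 and 3.28 CPM in WT liver, a log2 fold change of 0.67 ± 0.33 (adjusted p = 0.195). Clock differed by 0.15 ± 0.13.

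In all, 4 of the 10 genes passed in tumor against WT liver, 1 rising (Arntl) and 3 falling (Cry2, Nr1d1 and Nr1d2), against 14.9% of 17829 genes (8.08% rising and 6.80% falling). At an unadjusted p under 0.05 there were 5, these and Per1, against 32.5% of all genes in edgeR. Values of these groups did not overlap for 8 of the 10, 1 higher and 7 lower, against 34.1% of all genes (17.7% higher and 16.4% lower). The median log2 fold change of the 10 genes was -0.88 against 0.04 over all genes tested and -0.67 over the 6 hepatocyte markers. DESeq2 and limma-voom each called 5, the same 4 and Per1. With any single WT liver left out, only Arntl was called, and without N-LKO replicate 3, whose library enters this fit through the shared spread, Arntl and Cry2 were. Upper-quartile scaling also left these 2, and a fit of the 2 groups alone left Arntl. Over the 9 fits that left out 1 library, Nr1d1 lost its call in 8, Nr1d2 in 7 and Cry2 in 3. Per1, not called in the main fit, was called in 3 of these 9 fits and in 5 of the 8 other settings.

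Against N-LKO liver under WD, tumors had 1.97-fold more Arntl (log2 fold change 0.98 ± 0.29, adjusted p = 0.130) and 2.25-fold more Cry1 (1.17 ± 0.34, adjusted p = 0.124). Cry1 had 4.85, 1.99 and 2.98 CPM in N-LKO liver, each below each tumor. Nr1d1 and Nr1d2 differed by -0.66 ± 0.26 and -0.61 ± 0.26 (adjusted p of 0.221 and 0.247), and Dbp by -0.49 ± 0.67, with a tumor range of 3.34 to 50.4 CPM that enclosed 2 of the 3 N-LKO values. None of the 10 genes passed in edgeR or in limma-voom, where 0.499% of all genes passed in edgeR (0.437% higher and 0.0617% lower), and DESeq2 called 2 (Arntl and Cry1). In edgeR, 4 had an unadjusted p under 0.05, Arntl and Cry1 upward and Nr1d1 and Nr1d2 downward, against 18.3% of all genes. Groups did not overlap for Arntl and Cry1 (higher) and for Cry2 and Nr1d2 (lower), 4 of 10 against 23.1% of all genes (11.5% higher and 11.6% lower). Under WD the order of Arntl was thus WT liver, N-LKO liver and tumor, with no overlap between neighbours, although the steps from WT to N-LKO liver and from N-LKO liver to tumor did not pass the test one by one.

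**Figure D2:**
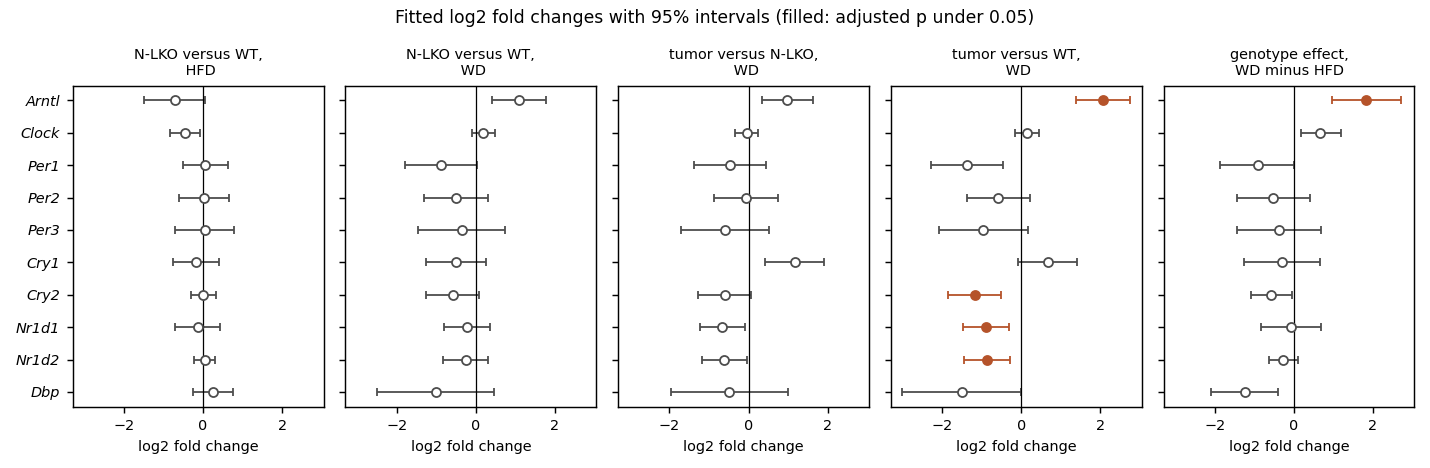
Fitted log2 fold changes of the 10 clock genes in the 4 group comparisons, and the difference between the genotype effects of the 2 diets, with 95% intervals (horizontal axis, log2 scale). Filled points passed an adjusted p of 0.05, which 4 genes did in tumor against WT liver and 1 gene, Arntl, did in the difference between diets.

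Tumor replicate 2 carried the extreme values. It was the lowest tumor for Per1, Per2, Per3, Cry2, Nr1d1, Nr1d2 and Dbp and the highest for Arntl, Clock and Cry1, so that all 10 genes were at an end of the tumor range, while it was the lowest tumor for 33.9% and the highest for 32% of all genes tested. Such a count was not particular to this tumor. WT replicate 2 and N-LKO replicate 1 under WD were each the lowest of their group for 3 and the highest for 7 of the 10 genes. Over all genes tested, WT replicate 2 was the lowest for 39.6% and the highest for 39.4%. For N-LKO replicate 1 these shares were 33.6% and 33.8%. In tumor replicate 2, Dbp was 12.1-fold lower than the mean of the other tumors, Per3 5.52-fold and Per2 2.71-fold lower, and Arntl was 2.12-fold higher. Its marker sums were 36141 CPM for hepatocytes, 242 CPM for recruited macrophages and 195 CPM for cholangiocytes, against 40639 and 62578, 556 and 623, and 376 and 523 CPM in the other tumors, and their part in the pattern was not tested. Without this tumor, Arntl rose by 1.58 against WT liver (adjusted p = 0.00769), Cry2 and Nr1d2 stayed called (-0.91 and -0.61) and Nr1d1 did not (-0.66, adjusted p = 0.0675). The log2 fold changes against WT liver became -1.0 for Dbp, -0.27 for Per2 and -0.53 for Per3, none of them called. Against N-LKO liver, Arntl became 0.51 (adjusted p = 0.300), Per3 -0.14, Per2 0.27 and Dbp 0.04.

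Marker sums of some other cell types differed between these groups too. Under WD, the 6 recruited macrophage markers summed to 38.8 to 181 CPM in WT liver, 227 to 265 CPM in N-LKO liver and 242 to 623 CPM in tumors, and the 6 cholangiocyte markers to 17.3 to 69.7, 115 to 151 and 195 to 523 CPM. Spp1, shared by these 2 lists, had means of 43.9, 122 and 323 CPM in the 3 groups and made up much of both sums. The median log2 fold change of the 5 tested cholangiocyte markers was -0.65 in tumor against N-LKO liver. Kupffer cell markers summed to 227 to 301 CPM in WT liver and 70.6 to 199 CPM in tumors, and hepatocyte markers to 46381 to 57886 CPM in WT liver, 32977 to 41718 CPM in N-LKO liver and 36141 to 62578 CPM in tumors. Sums for sinusoidal endothelium ran from 235 to 294 CPM, for stellate cells from 371 to 759.7 CPM and for T and B cells from 2.31 to 9.16 CPM over the WD libraries. In tumor against WT liver, 2 of 6 recruited macrophage markers, 2 of 5 tested cholangiocyte markers (Spp1 in both counts) and 1 of 6 T and B cell markers rose. In the same comparison 2 of 6 Kupffer cell markers, 1 of 6 stellate cell markers and 1 of 6 hepatocyte markers fell, and of the sinusoidal endothelium markers 1 rose and 1 fell. Of all genes tested, 14.9% were called there (8.08% rising and 6.80% falling). No marker of these 7 lists was at 0 in every library of a WD group. The part of these cell types in the clock gene levels was not tested.

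The genotype effect on Arntl differed between the diets. Its log2 fold change, N-LKO against WT liver, was -0.72 under HFD and 1.09 under WD, and the difference of 1.83 ± 0.41 passed the test over the 14 livers (edgeR, adjusted p = 0.0388). Dbp went the other way by -1.24 ± 0.40 without passing (adjusted p = 0.103), Clock differed by 0.67 ± 0.24 (adjusted p = 0.132) and Cry2 by -0.57 ± 0.24 (adjusted p = 0.196). Of the 10 genes, 1 was called, upward, against 1.62% of 15850 genes (0.587% upward and 1.03% downward), and 4 had an unadjusted p under 0.05 in edgeR, against 20.0%. The call rests on few libraries, since it was lost without WT replicate 3 under HFD (1.54, adjusted p = 0.0534) and in 9 other of the 14 fits that left out 1 liver, whose values ran from 1.54 to 2.04. It was also lost with the replicate number as a block (1.78, adjusted p = 0.0701) and with an offset for transcript length and GC content (1.70, adjusted p = 0.0862). Diet and sequencing table cannot be told apart here, and only the genotype difference within each table enters the value.

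Shifts between genes that peak at different hours were read from 3 differences of log2 CPM, each library being set against the mean of its table. These are descriptions and were not tested. The first, Dbp minus Arntl, sets a late-day gene against a late-night gene. Under HFD it was 0.57, -0.54, -2.17 and 0.26 in WT replicates 1 to 4 and 0.72, -0.21, 0.57 and 0.80 in N-LKO liver, so that WT replicate 3 stood alone and the other livers overlapped. Under WD it was 2.09, 2.47 and 1.69 in WT liver, 0.70, -0.87 and 0.02 in N-LKO liver, and -0.84, -5.09 and -0.16 in tumors. WT liver lay above both knockout groups, which overlapped each other.

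The second difference, Per2 minus Nr1d1, sets a dusk gene against a day gene. It ran from -1.92 to 0.93 in WT and from -0.52 to 0.55 in N-LKO liver under HFD, where WT replicate 3 held the lowest value. Under WD it ran from -0.16 to 0.18 in WT liver, from -1.07 to 0.49 in N-LKO liver and from -0.01 to 0.66 in tumors, and all 3 groups overlapped. Tumor replicate 2, the extreme of the first difference, was at -0.01 here, since its Per2 and Nr1d1 were both low, whereas WT replicate 3 under HFD had low Per2 with high Nr1d1. The 2 libraries that stood apart were thus alike in Arntl, Per2, Per3 and Dbp and unlike in Nr1d1 and in Cry1, which was lowest of its group in WT replicate 3 (2.56 CPM) and highest in tumor replicate 2 (8.67 CPM).

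The third difference, Cry1 minus Dbp, sets a night gene against a late-day gene. Under WD it was -1.0, -1.05 and -1.32 in WT liver, -0.54, -0.62 and -0.62 in N-LKO liver and 0.56, 4.31 and 0.27 in tumors, 3 groups with no overlap. Under HFD the values ran from -0.39 to 0.83 in WT and from -0.68 to -0.01 in N-LKO liver and overlapped.

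**Figure D3:**
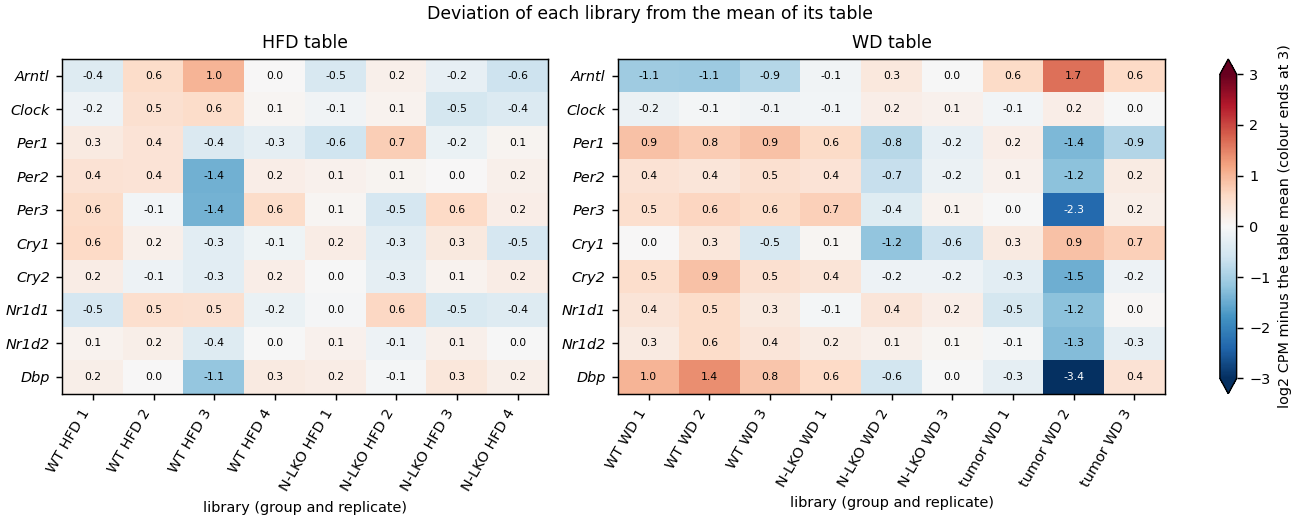
Log2 CPM of each clock gene in each library minus the mean of that gene over its table, in colour (red above, blue below, colour ending at 3 on either side) and in digits. Under HFD the largest departures sit in WT replicate 3, with Per2 and Per3 low and Arntl high, and under WD in tumor replicate 2, with Dbp and Per3 lowest and Arntl highest.

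The spread within groups was compared with that of genes of like level. The pooled within-group SD of log2 CPM of Dbp under WD was 1.25, higher than that of 99.6% of the 1000 genes nearest in mean level, and that of Per3 was 0.87, higher than 98.4%. Under HFD, Per3 (0.73), Per2 (0.64) and Dbp (0.48) exceeded 99.2%, 99.0% and 97.2% of such genes. The spread of Arntl was 0.50 under HFD and 0.39 under WD, above 74.7% and 76.5% of genes of like level. Clock had an SD of 0.13 under WD, above 21% only. The percentiles describe these libraries and are not tests. Much of the spread came from the 2 libraries that stood apart. Without WT replicate 3 under HFD, the SD of Per2 was 0.09, above 13.5% of genes of like level, that of Dbp 0.15 (68.1%) and that of Per3 0.42 (96.7%). Without tumor replicate 2, the SD of Dbp under WD was 0.47 (96.1%), that of Per3 0.35 (87.8%) and that of Arntl 0.16 (13.4%). These alternatives were added after the data were seen.

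In all, 4 pairs of genes were followed across the 8 HFD livers. Dbp and Per3 went together (Pearson's r = 0.93, exact two-sided permutation p = 0.000670, adjusted p = 0.00268 over 4 pairs, Spearman's rho = 0.88, p = 0.00724, adjusted p = 0.0290). Without WT replicate 3 and N-LKO replicate 2, the livers farthest from the median of Dbp, r was 0.74 (exact permutation p = 0.0597), so the relation no longer passed. Arntl and Dbp went in opposite directions (r = -0.82, exact permutation p = 0.0104, adjusted p = 0.0209, rho = -0.55, p = 0.171, adjusted p = 0.228). That relation rested on WT replicates 2 and 3, without which r was -0.42 (exact permutation p = 0.443). Arntl and Nr1d1 went together (r = 0.78, exact permutation p = 0.0233, adjusted p = 0.0310, rho = 0.64, p = 0.0962, adjusted p = 0.192), and r was 0.65 without the same 2 livers (exact permutation p = 0.151). Per1 and Per2 had r = 0.45 (exact permutation p = 0.272, adjusted p = 0.272, rho = 0.38, p = 0.360, adjusted p = 0.360), and r = 0.74 without N-LKO replicates 1 and 2 (exact permutation p = 0.0264, adjusted p = 0.106).

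As deviations from the group means, the HFD values were r = -0.79 for Arntl with Dbp, 0.85 for Arntl with Nr1d1, 0.96 for Dbp with Per3 and 0.45 for Per1 with Per2. Under WD, the 9 libraries fell into clusters by group for each pair, so no r over all libraries was taken. As deviations from the group means, r was -0.97 for Arntl with Dbp, 0.98 for Dbp with Per3, -0.69 for Arntl with Nr1d1 and 0.79 for Per1 with Per2, given as a description. The negative WD value of Arntl with Nr1d1 rested on tumor replicate 2, without which r was 0.37 over the 8 libraries left. Without it, r was -0.76 for Arntl with Dbp, 0.88 for Dbp with Per3 and 0.73 for Per1 with Per2. Without WT replicate 3, the HFD values were -0.65 for Arntl with Dbp, 0.87 for Arntl with Nr1d1, 0.96 for Dbp with Per3 and 0.37 for Per1 with Per2.

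**Figure D4:**
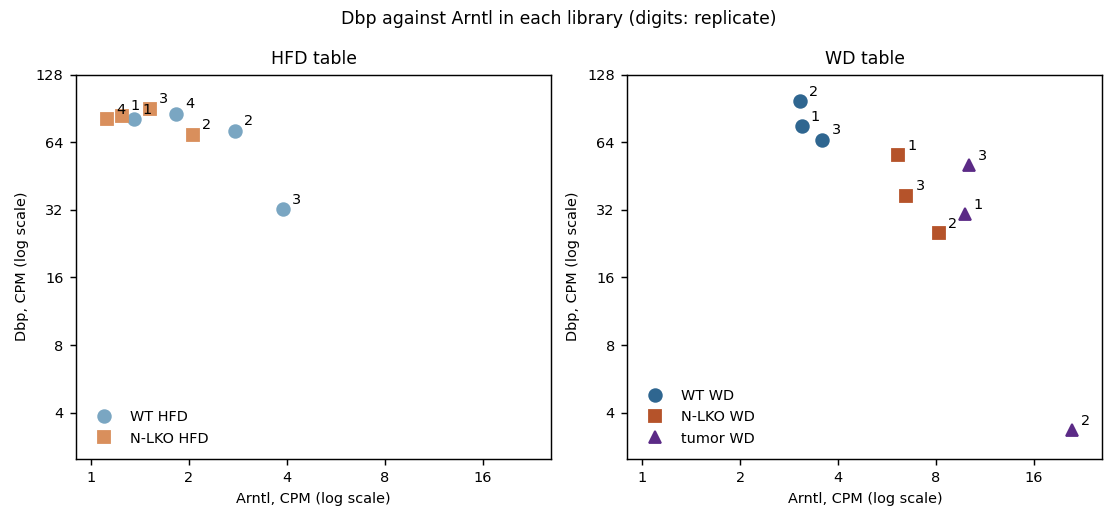
Dbp against Arntl in every library, in CPM on log axes, with HFD livers on the left and WD libraries on the right and digits for the replicate. Under HFD, WT replicate 3 sits alone at 3.89 CPM Arntl and 32.1 CPM Dbp. Under WD, Arntl rises from WT liver through N-LKO liver to tumors, and tumor replicate 2 sits alone at 21 CPM Arntl and 3.34 CPM Dbp. Tumor replicates 1 and 3, at 30.6 and 50.4 CPM Dbp, lie within the N-LKO range of 25.1 to 56.0 CPM.

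Genes outside the 10 were ranked by how closely their deviations from the group means followed those of Arntl and of Dbp over the 17 libraries, among 8593 genes with at least 5 CPM on average in each table. The libraries share depth and composition across genes, and the values are descriptions. For Arntl, the most alike were Kdm2a (r = 0.88), Slc66a2 (0.87), Pard6b (0.87), Traf2 (0.86) and Akirin2 (0.85). The most opposite were Nampt (-0.91), Nubpl, Sf3b1, Upp2 and Nufip1 (each -0.88). Of the members, Per3 (-0.89), Cry2 (-0.84), Per2 (-0.78) and Dbp (-0.78) were opposite to Arntl and Clock was alike (0.79). The order changed without the 2 libraries that stood apart. Over the 15 libraries left, Slc66a2 (0.91) and Nampt (-0.84) stayed among the 10 nearest each way, Akirin2 went to 0.66 and Upp2 to -0.68. Among the members, Per2 went to -0.31, Dbp to -0.45 and Nr1d1 from 0.27 to 0.79, and Per3 was at -0.68.

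For Dbp, the most alike were Slc26a1 (r = 0.96), Pgpep1, Tef, Smoc1 and Cipc (each 0.94), and among the most opposite were Htatip2 (-0.93), Tmem64 (-0.91), Blvrb (-0.88) and Thumpd1 (-0.87). Not all of these held in both tables. Tef had r = 0.99 under HFD and 0.93 under WD, and Slc26a1 0.91 and 0.96, whereas Blvrb had -0.25 under HFD and -0.96 under WD. Over the 15 libraries, Tef had r = 0.89, Slc26a1 0.81, Pgpep1 0.63 and Thumpd1 -0.39, and none of the named genes was among the 10 nearest to Dbp each way.

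The other genes of the clock loops were taken from a list of 16. Of these, 14 were tested under HFD and 15 under WD. In tumor against WT liver 1 rose and 2 fell of 15, against 14.9% of all genes called there, and DESeq2 and limma-voom gave the same counts. Npas2, which can stand in for Clock as the partner of ARNTL, had 1.10, 0.407 and 0.656 CPM in WT liver, 1.37, 2.94 and 2.07 CPM in N-LKO liver and 5.08, 9.65 and 2.55 CPM in tumors, and rose by 3.00 ± 0.55 on the log2 scale (adjusted p = 0.0121). Bhlhe41, a repressor that competes at E-boxes, fell by 1.44 ± 0.32 (adjusted p = 0.0204). Hlf, a relative of Dbp, had 94.7, 107 and 103 CPM in WT liver and 59.6, 29.1 and 63.0 CPM in tumors, and fell by 1.01 ± 0.28 (adjusted p = 0.0398). Without tumor replicate 2, Npas2 (2.36, adjusted p = 0.0257) and Bhlhe41 (-1.18, adjusted p = 0.0341) stayed called and Hlf did not (-0.76, adjusted p = 0.0541). Leaving out WT replicate 2 under WD left no gene of this list called. Over the 9 fits that left out 1 library, Npas2 lost its call in 1, Bhlhe41 in 2 and Hlf in 5. With upper-quartile scaling, Npas2 and Prkaa1 were called higher and Bhlhe41 lower. A fit of the 2 groups alone left only Npas2.

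None of these loop genes passed in edgeR, DESeq2 or limma-voom in the other comparisons. Without WT replicate 3 under HFD, 1 was called, Ciart downward, a repressor of the loop, and without tumor replicate 1 Fbxl21 was called downward in tumor against N-LKO liver. The genes with the smallest p were Rora (-0.19, adjusted p = 0.206) and Csnk1e (0.37, adjusted p = 0.253) under HFD, where 1 gene of the list had an unadjusted p under 0.05, Npas2 (1.56, adjusted p = 0.361) and Bhlhe41 (-0.80, adjusted p = 0.379) in N-LKO against WT liver under WD, where 3 were, and Npas2 (1.44, adjusted p = 0.167) and Prkaa1 (0.31, adjusted p = 0.203) in tumor against N-LKO liver, where 3 were. In the difference between diets Tef (-0.59, adjusted p = 0.207) had the smallest p and was the 1 gene with an unadjusted p under 0.05.

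Of 12 liver genes known as outputs of the clock, 2 fell and 0 rose in tumor against WT liver in edgeR, against 14.9% of all genes called there. DESeq2 added Wee1, a cell cycle kinase, and limma-voom added none. Alas1, the rate-limiting enzyme of heme synthesis, had 839.9, 1518 and 1208 CPM in WT liver, 644, 226 and 441 CPM in N-LKO liver and 469, 134 and 302 CPM in tumors, and fell by 1.98 ± 0.48 (adjusted p = 0.0254). Nr1i3, the xenobiotic receptor CAR, had 147, 198 and 231 CPM in WT liver and 88.1, 33.9 and 40.8 CPM in tumors, and fell by 1.82 ± 0.33 (adjusted p = 0.0116). The median log2 fold change of the 12 genes was -0.71 in that comparison and -0.52 in N-LKO against WT liver under WD, against 0.04 and 0.01 over all genes. The 6 hepatocyte markers had medians of -0.67 and -0.49 in the same comparisons. Without tumor replicate 2, Alas1 (-1.66, adjusted p = 0.0462) and Nr1i3 (-1.61, adjusted p = 0.0232) stayed called. Over the 9 fits that left out 1 library, Alas1 lost its call in 3 and Nr1i3 in 0. Outside tumor against WT liver, 0 of the 12 passed in edgeR, and the smallest p values were those of Tfrc (0.53, adjusted p = 0.260) and Nr1i3 (-0.20, adjusted p = 0.471) under HFD, of Wee1 (-0.73, adjusted p = 0.353) and Alas1 (-1.44, adjusted p = 0.353) in N-LKO against WT liver under WD, of Nr1i3 (-1.23, adjusted p = 0.104) and Nampt (0.46, adjusted p = 0.297) in tumor against N-LKO liver, and of Usp2 (-1.75, adjusted p = 0.187) and Alas1 (-1.07, adjusted p = 0.247) in the difference between diets. Those under an unadjusted p of 0.05 were 0, 3, 1 and 2 of the 12, against 22.7%, 12.4%, 18.3% and 20.0% of all genes. DESeq2 called 1 more outside tumor against WT liver, Nr1i3 in tumor against N-LKO liver, which edgeR also called without tumor replicate 1.

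The ranks of single libraries were also read in these lists. WT replicate 3 under HFD was the lowest WT liver for 8 of 14 tested loop genes and 8 of 12 outputs, and the highest for 0 of either. Over all genes tested it was the lowest for 25.1% and the highest for 27.0%. N-LKO replicate 2 under HFD was the lowest N-LKO liver for 7 of 14 and 8 of 12, against 30.2% of all genes tested. In WT replicate 3, Usp2 had 6.67 CPM against 40.4 to 61.2 CPM in the other WT livers, and Ciart, a repressor of the loop, had 1.33 against 12.7 to 13.9 CPM. Tumor replicate 2 was the lowest tumor for 8 of 15 loop genes and the highest for 5, and the lowest for 7 of 12 outputs, whereas N-LKO replicate 2 under WD was the lowest of its group for 6 of 15 and 8 of 12. The tumor had Usp2 at 2.98 CPM against 21.6 and 23.5 CPM and Ciart at 0.400 against 5.73 and 6.41 CPM. These genes were picked after their values were seen.

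**Figure D5:**
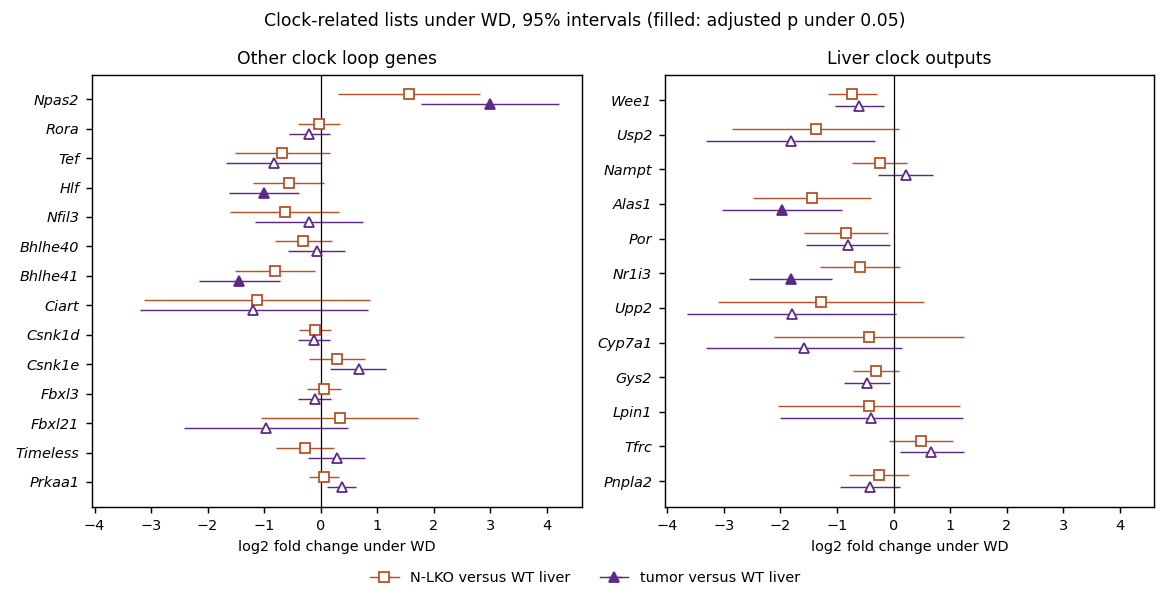
Fitted log2 fold changes under WD of tested clock loop genes outside the 10 (left) and of liver clock outputs (right), N-LKO against WT liver as squares and tumor against WT liver as triangles, with 95% intervals. Filled symbols passed an adjusted p of 0.05, which Npas2, Hlf, Bhlhe41, Alas1 and Nr1i3 did in tumors and none did in N-LKO liver.

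Glucocorticoids and food both set the phase of the liver clock, so genes that respond to them were counted beside it. Of 7 glucocorticoid-responsive genes, 1 fell in tumor against WT liver (Tat, a tyrosine-degrading enzyme, by 1.74 ± 0.48, adjusted p = 0.0378), against 14.9% of all genes, and 0 passed in edgeR elsewhere, where DESeq2 called 1 (Fkbp5, lower under HFD) and limma-voom 0. The smallest p values elsewhere were those of Mt2 (1.33, adjusted p = 0.0585) and Fkbp5 (-0.86, adjusted p = 0.0715) under HFD, of Tat (-0.81, adjusted p = 0.487) and Mt2 (-1.44, adjusted p = 0.523) in N-LKO against WT liver under WD, of Tat (-0.94, adjusted p = 0.322) and Fkbp5 (0.73, adjusted p = 0.428) in tumor against N-LKO liver, and of Mt2 (-2.74, adjusted p = 0.114) and Tat (-1.23, adjusted p = 0.186) in the difference between diets. Those under an unadjusted p of 0.05 were 2, 0, 0 and 2 of the 7, against 22.7%, 12.4%, 18.3% and 20.0% of all genes. Of 12 feeding and fasting genes, 1 fell in tumor against WT liver, against 14.9% of all genes called there. It was Pck1, the gluconeogenic enzyme that rises in fasting, which fell by 1.87 ± 0.46 (edgeR, adjusted p = 0.0269). DESeq2 added Igfbp1 upward in that comparison, and 0 passed in edgeR, DESeq2 or limma-voom elsewhere. Without tumor replicate 2, neither Tat (-1.55, adjusted p = 0.0956) nor Pck1 (-1.58, adjusted p = 0.0567) was called. Leaving out WT replicate 2 under WD also left no gene of either list called in tumor against WT liver. Over the 9 fits that left out 1 library, Tat lost its call in 7 and Pck1 in 2. In tumor against WT liver, neither was called with the replicate number as a block or in a fit of the 2 groups alone. The block called Fgf21 upward there. Under HFD, the block called 2 glucocorticoid-responsive genes lower, and 1 feeding and fasting gene higher and 1 lower. Without WT replicate 3 under HFD, 1 gene of each of these 2 lists was called lower, among them Fkbp5. Leaving out replicate 1 or replicate 2 of the N-LKO livers under HFD made Mt2, a metallothionein, a called gene in the upward direction. Pck1 had 1678, 5393 and 2073 CPM in WT liver under WD, 1637, 1611 and 1570 CPM in N-LKO liver and 1046, 424 and 1038 CPM in tumors. Under HFD, Igfbp1 (1.04, adjusted p = 0.107) was among those with the smallest p. In the other comparisons the smallest p were those of Pck1 (-0.92, adjusted p = 0.427) and Fgf21 (0.80, adjusted p = 0.594) in N-LKO against WT liver under WD, Pck1 (-0.94, adjusted p = 0.301) and Igfbp1 (0.80, adjusted p = 0.395) in tumor against N-LKO liver, and Pck1 (-1.02, adjusted p = 0.237) and Ppargc1a (-0.45, adjusted p = 0.283) in the difference between diets, and those under an unadjusted p of 0.05 were 2, 0, 0 and 1 of the 12, against the same shares of all genes. The part of feeding or of glucocorticoids in the clock gene levels was not tested.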

How the data were processed

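The 17 libraries were grouped by their titles. The authors deposited estimated counts per gene from Partek, which divides reads between features they could come from. The study's methods name Ribo-Zero, HiSeq and TopHat2, whereas the submitters' processing notes name STAR and genome build mm9. Gene starts match GRCm38, used here. All 17 columns were used and 0 were left out.

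Estimated counts were rounded. Tests were quasi-likelihood F tests in edgeR 4.0.16 (R 4.3.3) with TMM factors and filterByExpr, and p-values were adjusted by Benjamini-Hochberg over all genes tested. One fit held the 8 HFD livers, another the 9 WD libraries, and the difference between diets used 14 livers and genes of both tables. The approximate SE is the log2 fold change over the square root of F. Log2 CPM carried a prior count of 2. p-values measure only the spread between these samples. Each of 21 same-group pairs differed beyond sampling noise (chi-square per degree of freedom of 7.99 to 103). Scripts were tested on simulated data.

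The 10 genes and all lists were chosen with earlier results of these data known. All 10 were named. Each list gave up to 4 called genes or, with none called, the 2 with the smallest p, and likeness to Arntl and Dbp gave 5 genes each way. A few genes that this rule names are not reported here, by name or in the plots, and stay in the counts of their lists. Alternatives were DESeq2 1.42.0 (size factors, Wald test), upper-quartile scaling, no filter, limma-voom (limma 3.58.1), the replicate number as a block, an offset for length and GC content, fits of 2 groups, a prior count of 0.5 and leaving out each library. Spreads, relations and likeness without the 2 libraries that stood apart were added after the data were seen. N-LKO and WT livers under WD that share a number in their titles had deviations correlated over genes at 0.15, 0.14 and 0.16, each above 0.1. In the other comparisons not every same-numbered pair exceeded 0.1. The labels do not say that these animals were paired, so the replicate block served as an alternative only. Permutation tests used scipy 1.17.1.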

Additional observations from a re-analysis of the deposited data

Results flagged for a closer look

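The genotype effect on Arntl, N-LKO against WT liver, differed between WD and HFD by 1.83 on the log2 scale (edgeR interaction over 14 livers, adjusted p = 0.0388). This call was lost in 10 of the 14 fits that left out 1 liver. It was also lost with the replicate block and with the length and GC offset. Under HFD the 2 genotypes overlapped (1.35 to 3.89 CPM in WT and 1.1 to 2.06 CPM in N-LKO liver), and under WD all 3 N-LKO livers were above all 3 WT livers. A gap test was run within the HFD groups of 4 (20 gene and group combinations, of which chance picks about 1 in 20). On the log2 scale it singled out Per2 in WT replicate 3, at 7.67 CPM against 24.4 to 28.5 CPM in the other WT livers, with a gap of 0.881 of the group's range against a critical value of 0.83. On the linear CPM scale it singled out none.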

How the results depend on the processing

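The rise of Arntl in tumors against WT liver passed under every alternative run, with log2 fold changes of 1.58 to 2.26 over fits without 1 library and 1.95 to 2.14 over the others. The number of clock genes called there was 2 with upper-quartile scaling, 1 in a fit of the 2 groups alone and 1 to 4 in fits without 1 library. In tumor against N-LKO liver it was 2 with DESeq2 and 0 to 2 without 1 library, where leaving out tumor replicate 1 gave the 2 (Arntl and Cry1). For the difference between diets it was 2 with DESeq2 (Arntl and Dbp), 0 with the replicate block, 0 with the length and GC offset and 0 to 1 without 1 library. In N-LKO against WT liver it was 0 under both diets in all alternatives. For the WD livers the replicate block gave 0 as well, and it gave 3 in tumor against WT liver (Arntl, Per1 and Cry2). The causes of these changes were not tested.

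Some small differences changed sign. The length and GC offset gave Clock -0.06 in N-LKO against WT liver under WD, Clock -0.09 in tumor against WT liver and Nr1d1 0.01 in the difference between diets. Over HFD fits without 1 liver, Per1 ran from -0.25 to 0.23, Per2 from -0.25 to 0.17, Per3 from -0.24 to 0.24, Cry1 from -0.30 to 0.03, Cry2 from -0.08 to 0.10, Nr1d1 from -0.42 to 0.01 and Nr1d2 from -0.06 to 0.11. In tumor against N-LKO liver, fits without 1 library gave Clock -0.14 to 0.01, Per2 -0.32 to 0.27 and Dbp -1.22 to 0.04, and in the difference between diets Nr1d1 -0.23 to 0.21. Without the 2 farthest livers, the HFD relations had r = -0.42 (Arntl with Dbp), 0.65 (Arntl with Nr1d1) and 0.74 (Dbp with Per3). With 13 to 35 counts, Arntl under HFD was the least precisely measured of the 10 genes. Alternatives added after the data were seen left out the library that stood apart. Without WT replicate 3 under HFD, the SD within groups was 0.09 for Per2, 0.42 for Per3, 0.13 for Nr1d2 and 0.15 for Dbp. Without tumor replicate 2 under WD it was 0.16 for Arntl, 0.36 for Per2, 0.35 for Per3, 0.25 for Cry2, 0.13 for Nr1d2 and 0.47 for Dbp.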
